A study of Mus musculus with 9 samples.

Results

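The unfolded protein response (UPR) and endoplasmic reticulum (ER) chaperone genes were 36 listed genes among the 24341 gene names measured in the liver of C57BL/6 mice. They were chosen by name, as ER stress sensors, chaperones, disulfide isomerases, degradation factors, and stress targets, and all 36 were measured. RNA had been isolated from whole livers of 9 wild-type (WT) mice and sequenced from the 3′ end of each transcript (QuantSeq). Of these mice, 3 carried the treatment label CD40, which stands for an agonist antibody against CD40, a receptor on antigen-presenting cells, and 6 carried the control label PBS. Livers were taken 48 hours after treatment, and no dose is given in the labels. Neither age nor sex is given for these animals, and the methods describe sex-matched mice aged 8 to 12 weeks as the default. All mice shared the genotype and strain, and no transgene or tumor is named in the labels. The mice are named below by their label numbers, which were 2, 5, and 9 for anti-CD40 and 3, 4, 7, 8, 11, and 12 for control.

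Proteins that are secreted or placed in membranes fold in the ER, and the UPR is the program that cells switch on when unfolded proteins build up there. Its 3 sensors sit in the ER membrane. IRE1 splices the Xbp1 transcript, PERK phosphorylates a translation initiation factor and thereby favors translation of ATF4, and ATF6 travels to the Golgi and is cut into a transcription factor. Hepatocytes secrete most plasma proteins and depend on this machinery, and the liver also holds CREBH, a membrane-bound factor cut like ATF6. For description, each gene was assigned to 1 arm from general knowledge, although the arms share targets: 17 genes to ATF6, 11 to IRE1 and XBP1, 7 to PERK and ATF4, and 1 to CREBH.

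The best described switch in front of ER chaperone genes is the ER stress response element (ERSE). The genes described here were chosen by name as ER stress genes, so a high share with this element is not a result of these data. Promoter windows from RefSeq (GRCm38.p6, 300 bases, from 250 before to 50 after the transcription start) were at hand for 31 of the 36 genes, and Atf6, Hyou1, Manf, Derl1, and Sec61a1 were not searched. Derl2 and Creb3l3 had 2 windows each, so the listed genes are counted as genes, beside counts of windows over the genome. On either strand, ERSE (CCAAT, then 9 bases of any kind, then CCACG) was found in 9 of the 31 genes, against 39 of all 32851 windows (0.119%). ERSE-II (ATTGG, then 1 base of any kind, then CCACG) was found in 2 genes, against 12 of all windows (0.0365%). A core of the C/EBP-ATF response element bound by ATF4 (CARE, TGATGNAA) was found in 4 genes, Herpud1, Trib3, Asns, and Chac1, against 1304 of all windows (3.97%). The core of the XBP1 element (UPRE, TGACGTGG) was in 0 of the 31 genes and in 222 of all windows (0.676%). The 9 genes with ERSE are shown because they are standard chaperone and degradation targets of ATF6 and XBP1, and because their calls depended on the scaling. Of these 9, 0 were called in the test described below and with median of ratios scaling, which changed the values little. With quantile normalization, or with 3 acute phase genes left out, 6 were called. The window of Hspa5 is printed as the 250 bases before its start, 5′ to 3′, with the ERSE match in capitals at positions -65 to -47.
Hspa5 (chr2:34771840-34772089, plus strand): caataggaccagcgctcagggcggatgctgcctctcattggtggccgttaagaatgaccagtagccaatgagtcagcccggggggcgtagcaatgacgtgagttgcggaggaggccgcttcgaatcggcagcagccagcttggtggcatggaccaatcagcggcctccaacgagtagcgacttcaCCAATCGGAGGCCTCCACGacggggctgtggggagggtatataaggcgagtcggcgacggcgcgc
The other ERSE matches are printed with up to 20 bases on each side, read along the gene's own strand, again with the match in capitals. Those of Creld2, Calr, and Derl3 and 1 of the pair in Hsp90b1 lie on the opposite strand and read as the reverse complement.
Hsp90b1 (chr10:86705513-86705676, minus strand): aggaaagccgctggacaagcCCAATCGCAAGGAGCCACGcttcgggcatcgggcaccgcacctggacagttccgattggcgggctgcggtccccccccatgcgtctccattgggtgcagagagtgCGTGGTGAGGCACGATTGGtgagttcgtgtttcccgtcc
Creld2 (chr15:88819500-88819558, plus strand): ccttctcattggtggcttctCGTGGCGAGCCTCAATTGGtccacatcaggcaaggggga
Calr (chr8:84847055-84847113, minus strand): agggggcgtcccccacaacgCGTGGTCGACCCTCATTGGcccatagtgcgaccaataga
Canx (chr11:50325780-50325838, minus strand): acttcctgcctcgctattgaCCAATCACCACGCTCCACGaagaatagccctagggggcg
Pdia6 (chr12:17266471-17266529, plus strand): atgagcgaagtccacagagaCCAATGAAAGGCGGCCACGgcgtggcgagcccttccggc
Derl3 (chr10:75893222-75893280, plus strand): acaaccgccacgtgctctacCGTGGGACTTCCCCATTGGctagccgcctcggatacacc
Dnajc3 (chr14:118937807-118937865, plus strand): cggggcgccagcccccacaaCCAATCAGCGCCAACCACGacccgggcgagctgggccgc
Syvn1 (chr19:6046512-6046570, plus strand): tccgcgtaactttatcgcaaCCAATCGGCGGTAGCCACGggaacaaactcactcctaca
The ERSE-II matches of Dnajb11 and Herpud1 are in capitals next.
Dnajb11 (chr16:22857832-22857874, plus strand): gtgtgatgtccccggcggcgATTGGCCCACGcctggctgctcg
Herpud1 (chr8:94386357-94386407, plus strand): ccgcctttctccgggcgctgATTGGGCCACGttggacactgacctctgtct
Of the 5 genes that passed the test, Hyou1 had no window at hand. Asns had the CARE core, shown in capitals at positions -23 to -16, and Pdia3, Ddit3, and Eif2ak3 had none of the searched letters, so their 250 bases before the start are in lower case throughout.
Asns (chr6:7693210-7693459, minus strand): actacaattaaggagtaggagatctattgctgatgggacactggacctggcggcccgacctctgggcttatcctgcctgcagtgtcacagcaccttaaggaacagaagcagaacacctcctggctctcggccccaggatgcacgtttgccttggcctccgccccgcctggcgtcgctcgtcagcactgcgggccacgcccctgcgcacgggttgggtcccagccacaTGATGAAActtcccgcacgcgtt
Pdia3 (chr2:121413652-121413901, plus strand): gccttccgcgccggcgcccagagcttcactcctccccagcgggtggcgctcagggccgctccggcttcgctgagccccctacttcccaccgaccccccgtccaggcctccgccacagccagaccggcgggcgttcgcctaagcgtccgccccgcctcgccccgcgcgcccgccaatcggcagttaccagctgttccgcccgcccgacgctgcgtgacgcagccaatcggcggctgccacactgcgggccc
Ddit3 (chr10:127290543-127290792, plus strand): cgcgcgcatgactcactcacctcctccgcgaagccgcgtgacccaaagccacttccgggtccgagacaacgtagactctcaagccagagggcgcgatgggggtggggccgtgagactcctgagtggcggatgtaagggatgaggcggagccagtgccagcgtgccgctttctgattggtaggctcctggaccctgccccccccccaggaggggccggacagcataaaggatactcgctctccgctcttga
Eif2ak3 (chr6:70844265-70844514, plus strand): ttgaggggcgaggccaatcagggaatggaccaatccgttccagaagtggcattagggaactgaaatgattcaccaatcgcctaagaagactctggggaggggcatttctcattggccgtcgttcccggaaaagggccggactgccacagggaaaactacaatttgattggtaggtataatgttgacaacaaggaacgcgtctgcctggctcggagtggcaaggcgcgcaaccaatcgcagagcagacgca
The CARE cores of Trib3 and Chac1, which did not pass the test, are shown for comparison with Asns, in capitals and on the opposite strand. A match describes letters and was not tested as a binding site.
Trib3 (chr2:152344031-152344066, minus strand): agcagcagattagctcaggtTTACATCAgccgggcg
Chac1 (chr2:119351029-119351076, plus strand): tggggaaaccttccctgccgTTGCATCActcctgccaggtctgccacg

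At 48 hours after anti-CD40, UPR genes did not move as 1 block. Of the 36 genes, 5 rose, namely Ddit3, Asns, Eif2ak3, Pdia3, and Hyou1, and 0 fell. The test was limma on log2(FPKM + 0.1), FPKM being fragments scaled for transcript length and library size, with Benjamini-Hochberg adjustment over the 13807 genes whose FPKM averaged 0.1 or more and a threshold of 0.05. All 36 genes passed that filter. Of all genes tested, 45.1% were called, 23.5% as higher and 21.7% as lower, beside 13.9% of the UPR genes. At an unadjusted limma p under 0.05, 7 of the 36 genes passed. The groups did not overlap in 4 genes with higher values and in 1 gene with lower values after anti-CD40, where 22.7% and 19.6% of all genes did not overlap in these directions (42.4% together). The median log2 fold change over the 36 genes was 0.18, beside 0.0056 over all genes. In the ATF6 arm the median was 0.42, in the PERK-ATF4 arm 0.28, and in the IRE1-XBP1 arm -0.0032.

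**Figure D1:**
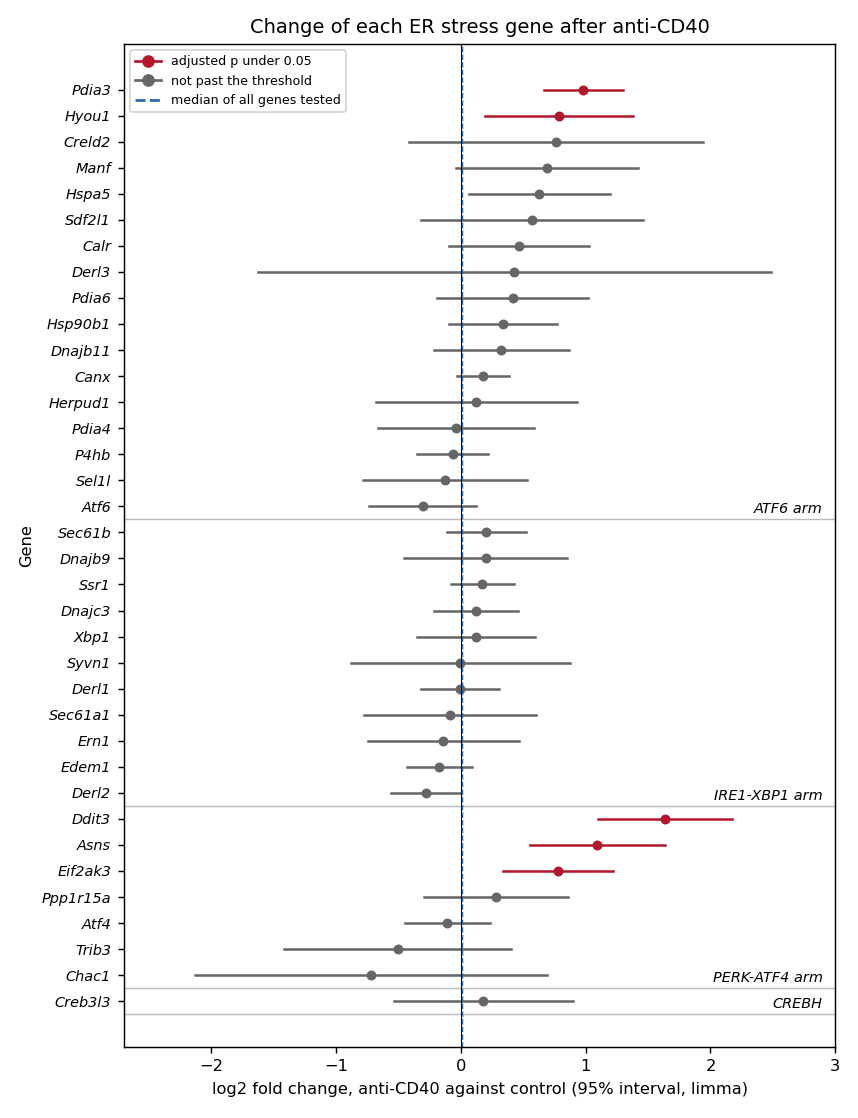
Log2 fold change (anti-CD40 against control, horizontal axis) of each of the 36 UPR and ER chaperone genes, by arm, with 95% intervals from limma over 3 anti-CD40 and 6 control mice. The 5 genes past the threshold are in red, from 0.78 for Eif2ak3 to 1.63 for Ddit3, and the dashed line marks the median of all genes (0.0056).

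These livers differed in more than the UPR. The 3 genes Saa1, Saa2, and Saa3, which encode acute phase proteins, took 25.4% to 25.9% of the summed FPKM after anti-CD40 and 0.0449% to 0.380% in controls. Summed FPKM ran from 896032 (control 4) to 994646 (control 8), so an FPKM is only roughly a share of a library. With these 3 genes left out and the rest rescaled, the median change over all genes became 0.35 on the log2 scale, and 16 of the 36 UPR genes (44.4%) were called higher beside 40.7% of all genes. With quantile normalization, 15 of the 36 (41.7%) were called higher beside 21.7% of all genes, so the order of these shares turned around against the 13.9% and 23.5% above. Median of ratios scaling divides each library by its median ratio to the gene means. It left 5 of the 36 called higher (13.9%), beside 23.6% of all genes. The median change over all genes was 0.0056 before this scaling and 0.0085 after it. It thus changed the values little and is no independent check. The calls gained lay in the ATF6 arm (10 of 17 genes with quantile normalization and 9 with the Saa genes left out, in place of 2) and the IRE1-XBP1 arm (2 and 4 of 11, in place of 0). In the PERK-ATF4 arm the same 3 genes were called under each. Summed FPKM of 10 hepatocyte markers was 9165 to 10891 after anti-CD40 and 15407 to 29573 in controls, with 6 of the 10 lower, 2 higher, and none at the floor of the table, so the liver label held. Summed plasma cell and B cell markers, of secretory cells that also express ER chaperones, were at 78.8 to 117 against 4.96 to 16.4, with 8 of 9 higher. Markers of neutrophils (7 of 7), monocytes and macrophages (8 of 10, with 1 lower, Adgre1), and T and NK cells (9 of 10) were higher. Those of Kupffer cells (7 of 7) were lower. The part of these shifts in the values below was not tested, and in bulk tissue fewer cells of a type cannot be told apart from less RNA per cell.

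The PERK-ATF4 arm held the largest increase and also the largest decrease in fitted value of the 36 genes. Eif2ak3 encodes PERK, the sensor of the arm. In livers 2, 5, and 9 it held 8.03, 8.39, and 8.49 FPKM, and the controls ran from 3.52 through a median of 4.90 to 6.84. Every anti-CD40 liver lay above every control, and Eif2ak3 rose 1.72-fold (log2 fold change 0.78, SE 0.20, limma adjusted p = 0.00916, exact permutation p = 0.0238, the smallest that the 84 splits of 9 mice into 3 and 6 allow). Atf4 encodes the transcription factor of the arm, which is controlled largely at translation. Its FPKM was 104, 93.4, and 97.4 after anti-CD40 and 81.6, 105, and 140 (lowest, median, highest) in controls. The groups overlapped throughout, with a log2 difference of -0.11 (95% interval -0.45 to 0.23, limma adjusted p = 0.584).

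Ddit3 encodes CHOP, a transcription factor induced by ATF4 and tied to cell death under prolonged ER stress. After anti-CD40 it stood at 48.9, 64.3, and 40.2 FPKM (mice 2, 5, and 9), against 11.3, 16.9, and 21.6 (lowest, median, highest) in controls. The lowest anti-CD40 liver stood well above the highest control, and Ddit3 rose 3.10-fold (log2 fold change 1.63, SE 0.24, limma adjusted p = 3.32e-04, exact permutation p = 0.0238). The 3′ end of Ddit3 overlaps that of Mars, which encodes a methionyl-tRNA synthetase on the opposite strand, by 68 bases on chromosome 10. Whether strand was used in counting is not given in the sources used here, so reads from the shared bases cannot be assigned with certainty. Mars fell by 0.48 on the log2 scale (SE 0.11, limma adjusted p = 0.0055), against the direction of Ddit3.

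Asns encodes asparagine synthetase, an amino acid enzyme induced by ATF4. It was listed at 0.445, 0.501, and 0.598 FPKM after anti-CD40 and at 0.102, 0.204, and 0.281 (lowest, median, highest) in controls. The groups were apart, and Asns rose 2.13-fold on the log2(FPKM + 0.1) scale (log2 fold change 1.09, SE 0.24, limma adjusted p = 0.00430, exact permutation p = 0.0238). The size of this change depends on the pseudocount, with a log2 fold change of 0.34 at a pseudocount of 1 and 1.43 at 0.01, and the call held at both. The level was low. The smallest whole numbers of reads that fit the steps of its FPKM were 17, 18, and 20 after anti-CD40 and 3 to 10 in the controls.

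The remaining targets of ATF4 and CHOP did not follow. Trib3 encodes a pseudokinase that restrains ATF4 signaling, and its FPKM was 3.76, 5.46, and 6.30 after anti-CD40 against 2.76, 7.78, and 12.1 (lowest, median, highest) in controls. Of the 6 controls, 5 lay above all anti-CD40 livers and control 4 lay below them, with a log2 difference of -0.50 (95% interval -1.41 to 0.41, limma adjusted p = 0.344). Without control 4, Trib3 passed the threshold as lower. Chac1 encodes an enzyme that degrades glutathione, and it stood at 1.42, 2.18, and 1.17 FPKM against 0.781, 2.42, and 10.8. The top value came from control 12, and the difference was -0.72 (95% interval -2.13 to 0.69, limma adjusted p = 0.382). Ppp1r15a encodes GADD34, which directs a phosphatase to reverse the PERK signal, and it stood at 5.70, 7.28, and 6.58 FPKM within the control range of 3.31 to 7.84. Its log2 difference was 0.28 (95% interval -0.30 to 0.86, limma adjusted p = 0.409), and its gene model overlaps that of Tulp2 by 717 bases on the opposite strand. Thus 1 of these 4 target genes rose, beside 23.5% of all genes. The CARE core printed above was held by Asns, which rose, and by Trib3 and Chac1, which did not pass.

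**Figure D2:**
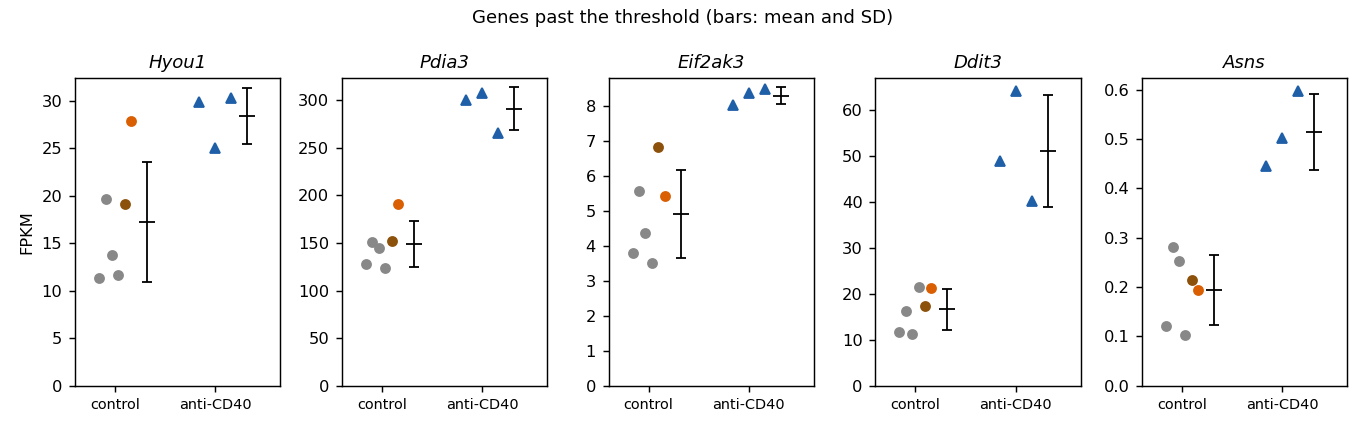
FPKM (vertical axis, from 0) in each liver of the 5 genes past the threshold, with control mice as circles, control 11 in brown and control 12 in orange, anti-CD40 mice as blue triangles, and the mean and SD beside them. In Pdia3, Eif2ak3, Ddit3, and Asns all 3 anti-CD40 livers lie above all 6 controls, and in Hyou1 control 12 (27.8) lies above anti-CD40 mouse 5 (25.0).

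In the ATF6 arm, 2 of 17 genes rose, Pdia3 and Hyou1, beside 23.5% of all genes. Several chaperones stood near the top of a wide control range. Atf6, the sensor itself, was measured at 6.15, 6.65, and 7.17 FPKM after anti-CD40 and at 6.06, 8.26, and 11.2 (lowest, median, highest) in controls. The difference was -0.30 (95% interval -0.73 to 0.12, limma adjusted p = 0.227), and it turned to 0.058 with the Saa genes left out.

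Pdia3 encodes ERp57, the isomerase that works with calreticulin and calnexin and also loads peptides onto MHC class I. After anti-CD40 it stood at 299.8, 308, and 266 FPKM (mice 2, 5, and 9), against 123, 148, and 191 (lowest, median, highest) in controls. There was no overlap, and Pdia3 rose 1.98-fold (log2 fold change 0.98, SE 0.14, limma adjusted p = 2.85e-04, exact permutation p = 0.0238). None of the other isomerase genes passed. Pdia6 was measured at 266, 278, and 285 FPKM against 152, 181, and 357 in controls, with a difference of 0.42 (95% interval -0.19 to 1.02). P4hb, which encodes the founding member of the family, was at 595, 593, and 573 against 514, 624, and 727, with a difference of -0.067 (95% interval -0.35 to 0.22) that became 0.42 and passed with quantile normalization. Creld2, a secreted isomerase-like stress protein, was at 13.0, 15.3, and 16.8 against 3.66, 7.64, and 26.2, a 7.16-fold range among controls, with a difference of 0.76 (95% interval -0.42 to 1.94).

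Pdia4 encodes ERp72 and had the widest spread of the 36 genes among anti-CD40 livers. It was at 25.3, 45.1, and 15.0 FPKM in mice 2, 5, and 9, a 3.00-fold range, while the controls ran from 22.6 to 33.6. Mouse 5 was the highest of all 9 livers and mouse 9 the lowest. Mouse 5 also held transcripts of pancreatic acinar cells, with a summed FPKM of 1758 over 17 acinar markers against 34.7 and 41.6 in mice 2 and 9 and 74.0 to 197 in controls, and with Amy2a5 at the floor in all livers. The part of these transcripts in the Pdia4 value was not tested, and mouse 9 lay below all controls in Pdia4 with an acinar sum of 41.6. Over all 3 mice the difference was -0.039 (95% interval -0.66 to 0.58, limma adjusted p = 0.923).

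Hyou1 encodes GRP170, a large chaperone and nucleotide exchange factor of BiP. The treated livers 2, 5, and 9 held 29.9, 25.0, and 30.3 FPKM, against 11.4, 16.4, and 27.8 (lowest, median, highest) in controls. Control 12 lay among the anti-CD40 livers and the other 5 controls lay below them. Hyou1 rose 1.73-fold (log2 fold change 0.79, SE 0.27, limma adjusted p = 0.0341, exact permutation p = 0.0476), and it lost the threshold when any 1 of the anti-CD40 mice 2, 5, and 9 or of the controls 3, 7, and 8 was left out (adjusted p from 0.0570 to 0.106). Hspa5 encodes BiP, the central ER chaperone that also holds the sensors inactive, and it had the same shape. It was at 1985, 2143, and 2224 FPKM after anti-CD40 and 844, 1372, and 2208 in controls, with 5 of 6 controls below every anti-CD40 liver. The log2 difference was 0.63 (SE 0.26, 95% interval 0.062 to 1.20) and did not pass after adjustment (limma adjusted p = 0.0677). Manf, a secreted stress protein that binds BiP, was at 108, 123, and 111 against 37.1, 75.5, and 121, with a difference of 0.69 (95% interval -0.039 to 1.42, limma adjusted p = 0.113). In Hspa5, Hyou1, and Manf, control 12 was the 1 control at the level of the treated livers. Without control 12, Hspa5, Manf, Calr, and Pdia6 were also called higher, and the count of genes called went from 5 to 9.

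Among the remaining folding factors of the arm, fitted differences were above 0 and the groups overlapped. Hsp90b1, which encodes GRP94, was at 365, 480, and 376 FPKM against 215, 340, and 396 in controls, with a difference of 0.34 (95% interval -0.098 to 0.77). Calr and Canx encode the lectin chaperones calreticulin and calnexin. Calr was at 462, 619, and 485 FPKM against 252, 345, and 639.6, with a difference of 0.47 (95% interval -0.099 to 1.03). Canx was at 120, 108, and 105 against 91.4, 97.7, and 107, with a difference of 0.18 (95% interval -0.033 to 0.39). Its exact permutation p of 0.0476, which is not adjusted, stood beside a limma p of 0.0902 before adjustment and 0.153 after it. Only control 12 reached the anti-CD40 range of Canx. Dnajb11, a J protein that delivers clients to BiP, was at 53.9, 51.9, and 54.3 against 28.0, 42.6, and 61.8 (difference 0.33, 95% interval -0.21 to 0.86). Sdf2l1, a partner of Dnajb11, was at 58.1, 66.8, and 52.5 against 18.0, 45.5, and 68.5 (difference 0.57, 95% interval -0.32 to 1.46). Controls 11 and 12 held the top control values of both.

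Factors of ER-associated degradation (ERAD) move misfolded proteins out of the ER for destruction. Of the 7 genes in both arms, 0 were called, beside 45.1% of all genes, and the median difference over the 7 was -0.0069. Herpud1, a membrane factor that assembles the degradation complex, was at 349, 450, and 384 FPKM against 189, 330, and 650 in controls (difference 0.12, 95% interval -0.68 to 0.93). Sel1l, the adaptor of the ubiquitin ligase, was at 26.2, 32.3, and 35.1 against 19.8, 32.6, and 60.1 (difference -0.13, 95% interval -0.78 to 0.53). For these genes controls 11 and 12 stood above all anti-CD40 livers. Derl3, a Derlin found mainly in secretory tissues, was at 1.08, 1.78, and 1.05 against 0.0519, 0.985, and 5.40 (difference 0.43, 95% interval -1.62 to 2.48), a range among controls too wide to place the treated livers.

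The IRE1-XBP1 arm had a median difference near 0, with 0 of 11 genes called in either direction, beside 45.1% of all genes. Ern1 encodes IRE1 and was listed at 0.108, 0.152, and 0.205 FPKM after anti-CD40 and at 0.0770, 0.204, and 0.280 (lowest, median, highest) in controls, on 6 to 20 reads by the same steps as for Asns. The difference was -0.14 (95% interval -0.74 to 0.47). Xbp1, the transcript that IRE1 splices, was at 80.7, 97.4, and 85.4 FPKM against 54.3, 87.7, and 111, with a difference of 0.12 (95% interval -0.35 to 0.59, limma adjusted p = 0.667). A value per gene from the 3′ end does not separate spliced from unspliced Xbp1.

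Among the targets of XBP1, the treated livers lay within or beside the control range. Dnajb9, the J protein ERdj4, was at 35.9, 39.7, and 36.1 FPKM against 20.9, 30.6, and 67.4 in controls (difference 0.20, 95% interval -0.45 to 0.85). Of the 6 controls, 5 lay below every treated liver and control 11 lay far above them. Dnajc3, the J protein p58IPK, was at 65.3, 64.9, and 65.5 against 51.2, 54.7, and 79.4 (difference 0.12, 95% interval -0.21 to 0.46), and the treated livers lay close together. Edem1, which hands misfolded glycoproteins to degradation, was at 15.1, 16.6, and 15.9 against 15.4, 18.5, and 20.03 (difference -0.17, 95% interval -0.44 to 0.087). Syvn1, the ubiquitin ligase HRD1, was at 14.0, 22.3, and 18.8 against 10.1, 16.1, and 36.4 (difference -0.0032, 95% interval -0.88 to 0.87). In both genes the groups overlapped.

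Derl1 and Derl2 encode Derlins, channel proteins of ERAD. Derl1 was at 54.8, 57.8, and 61.6 FPKM against 48.4, 56.3, and 73.7 in controls (difference -0.0069, 95% interval -0.32 to 0.31), and with the Saa genes left out its difference was 0.36 and passed. Derl2 was at 50.2, 49.7, and 52.5 against 55.6, 58.8, and 79.9. It was the 1 gene of the 36 in which every anti-CD40 liver lay below every control, with a log2 difference of -0.28 (SE 0.13, exact permutation p = 0.0238) that did not pass after adjustment (limma adjusted p = 0.0955). With the Saa genes left out its difference was 0.086. Genes of protein entry into the ER completed the arm. Sec61a1 and Sec61b encode subunits of the translocation channel and Ssr1 a subunit of the neighboring TRAP complex. Sec61a1 was at 223, 255, and 244 FPKM against 150.2, 248, and 484 (difference -0.086, 95% interval -0.77 to 0.60). Sec61b was at 679, 538, and 603 against 414, 552, and 589 (difference 0.21, 95% interval -0.11 to 0.52). Ssr1 was at 17.7, 15.7, and 16.6 against 13.4, 14.4, and 17.1 (difference 0.17, 95% interval -0.079 to 0.43). None of the 3 passed the test. Sec61b was called higher with quantile normalization and with the Saa genes left out, and Ssr1 with the Saa genes left out.

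Creb3l3 encodes CREBH, the liver factor that drives acute phase and lipid genes once cut. Its FPKM was 71.2, 75.5, and 88.1 after anti-CD40 and 36.6, 66.3, and 128 (lowest, median, highest) in controls. The treated livers lay in the middle of the control range, with a difference of 0.18 (95% interval -0.54 to 0.90, limma adjusted p = 0.675). Of 10 listed CREBH target genes, counted in the main test only, 4 rose (40%, beside 23.5% of all genes) and 0 fell (beside 21.7%). In 1 of the 10 every treated liver lay below every control, without passing the test. Apcs, which encodes the acute phase protein serum amyloid P, was at 1363, 1205, and 961 FPKM against 131 to 224 in controls (log2 fold change 2.78, SE 0.21, limma adjusted p = 4.31e-06). Fgf21, a hormone induced by both CREBH and ATF4, was at 9.69, 8.16, and 11.6 against 0.0651 to 3.89 (log2 fold change 3.62, SE 0.88, limma adjusted p = 0.00688). Apoc2, an activator of lipoprotein lipase, rose as well (log2 fold change 1.77, SE 0.28, limma adjusted p = 4.96e-04). These genes have other regulators, and transcript levels do not show whether CREBH was cut.

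**Figure D3:**
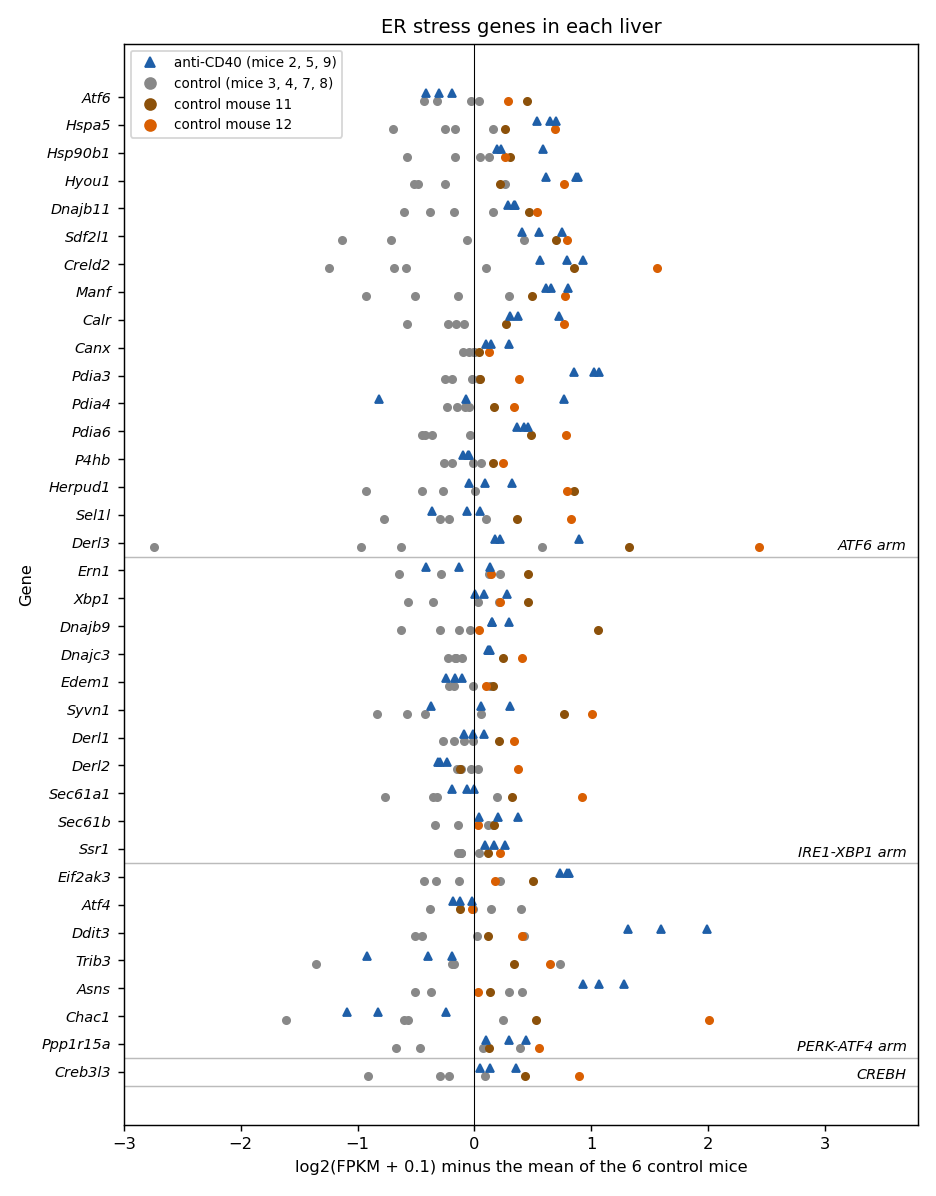
Log2(FPKM + 0.1) of each of the 36 genes in each liver, as the difference from the mean of the 6 controls, with anti-CD40 mice as triangles and control mice as circles (control 11 brown, control 12 orange). Control 11 or 12 was the highest control in 9 and 23 genes, and the SD of the triangles is largest in Pdia4 (0.79).

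The UPR genes varied widely among control mice. The SD among controls on the log2 scale had a median of 0.43 over the 36 genes and 0.30 over all genes, and the SD among anti-CD40 mice had a median of 0.15 and 0.18. Controls varied more than anti-CD40 mice in 34 of 36 genes (94.4%), beside 77.2% of all genes. A range of at least 2-fold among controls was seen in 21 of 36 genes (58.3%), beside 42.0% of all genes. The high controls were mostly the same mice, which were singled out after their values were seen. Control 12 was the highest control in 23 of 36 genes (63.9%, beside 23.9% of all genes) and control 11 in 9 (25.0%, beside 10.8%). They were together the top pair of controls in 25 of 36 genes (69.4%, beside 10.7% of all genes), in 16 of 17 genes of the ATF6 arm, and in 9 of the 9 genes with ERSE. In the PERK-ATF4 arm they were the top pair in 1 of 7 genes. Genes are not independent of each other, and these counts describe 6 mice.

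The same ordering was seen in the mean log2 difference of each arm from the control mean. For the ATF6 arm it was 0.29, 0.49, and 0.30 in anti-CD40 mice 2, 5, and 9. In controls 11 and 12 it was 0.44 and 0.73, and in controls 3, 4, 7, and 8 it was -0.42, -0.23, -0.070, and -0.45. Mouse 5, the highest treated liver here, was also the one with acinar transcripts (summed FPKM 1758), and it was the highest treated liver in 8 of the 17 genes. The part of these transcripts in the arm was not tested, and without mouse 5 the median difference of the arm was 0.34 in place of 0.42. The treated livers lay above 4 controls, on either side of control 11, and below control 12. For the IRE1-XBP1 arm it was -0.064, 0.050, and 0.050 after anti-CD40, 0.35 and 0.35 in controls 11 and 12, and -0.22 to -0.099 in the other controls. For the PERK-ATF4 arm it was 0.23, 0.50, and 0.33 after anti-CD40, 0.23 and 0.54 in controls 11 and 12, and -0.40 to -0.025 in the others. Controls 11 and 12 also had the highest sums of hepatocyte markers (22733 and 29573, beside 15407 to 20566 in the other controls), and the part of this in their UPR values was not tested. The labels name no batch.

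**Figure D4:**
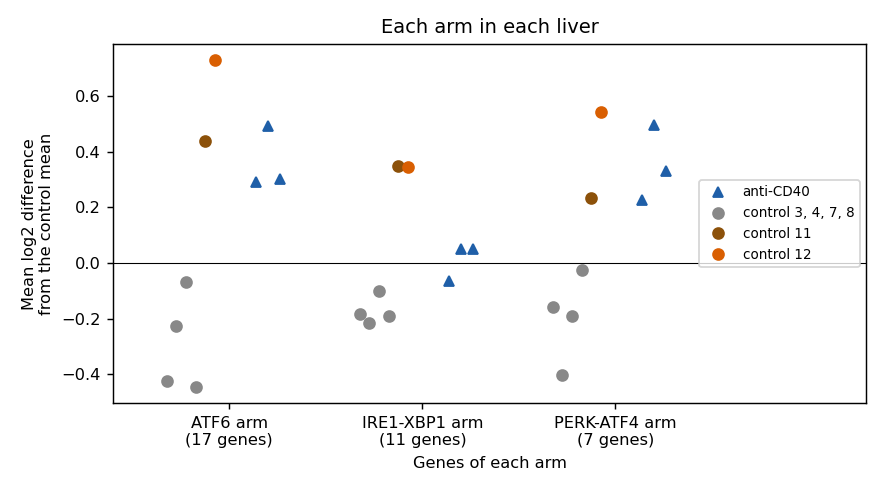
Mean log2 difference from the control mean over the genes of each UPR arm (vertical axis) in each liver, with anti-CD40 mice as triangles and controls as circles (control 11 brown, control 12 orange). In the ATF6 arm the 3 anti-CD40 livers (0.29 to 0.49) lie above controls 3, 4, 7, and 8 (-0.45 to -0.070), and control 12 (0.73) lies above them all.

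Over the 9 genes with ERSE, 0 passed the test, beside 45.1% of all genes. A fitted difference above 0 was found in 8, and the median difference was 0.42. With quantile normalization, 6 of the 9 were called higher (Hspa5, Hsp90b1, Calr, Canx, Pdia6, and Dnajc3), beside 21.7% of all genes. The same 6 were called with the Saa genes left out, beside 40.7% of all genes. With median of ratios scaling, which changed the values little, 0 of the 9 were called, beside 23.6% of all genes called higher. Without control 12 there were 3 (Hspa5, Calr, and Pdia6), beside 23.3% of all genes. In 6 of the 9 genes control 12 was the highest of all 9 livers. Of the 20 genes with a window and neither ERSE nor ERSE-II, 4 passed, all as higher, beside 23.5% of all genes called higher. These were Pdia3, Ddit3, Eif2ak3, and Asns, and the median difference over the 20 was 0.15.

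Other genes of the pathway, taken as 8 lists from general knowledge, gave 42 higher (18.8%) and 30 lower (13.4%) of 224 tested, beside 23.5% and 21.7% of all genes. The 8 lists, CREBH targets among them, were not counted with quantile normalization or with the Saa genes left out. Those scalings changed the counts of the UPR genes, so the list counts below hold for the main test only. Among 39 other folding genes, 7 rose and 4 fell. Dnajc10, which encodes the disulfide reductase ERdj5, was at 20.6, 19.6, and 18.8 FPKM against 7.14 to 11.1 in controls (log2 fold change 1.25, SE 0.14, limma adjusted p = 5.97e-05). Rcn1, an ER calcium-binding protein (log2 fold change 1.03), and Fkbp11, a prolyl isomerase of secretory cells (0.85), rose too. Prdx4, the ER peroxiredoxin, fell from a control range of 96.2 to 152 to 50.8, 51.9, and 43.8 (log2 fold change -1.30, SE 0.15, limma adjusted p = 6.27e-05), and Hspbp1, a cofactor of HSP70, and Cnpy2, a saposin-like ER protein, fell by 0.86 and 0.65 on the log2 scale. Of 28 genes of glycan processing, 3 rose, with Kdelr3, a receptor that returns ER proteins (1.88), Gfpt1, which opens the hexosamine pathway (0.84), and Man1a, a mannosidase (0.61), and 3 fell, Alg5 among them (-0.56).

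Of 28 ERAD genes outside the 36, 0 rose, beside 23.5% of all genes, and 6 fell (21.4%), a share close to the 21.7% of all genes. Their median difference was -0.13. Rnf5, an ER ubiquitin ligase, was at 8.12, 13.3, and 14.1 FPKM against 16.4 to 64.7 in controls (log2 fold change -1.54, SE 0.37, limma adjusted p = 0.00665). Ngly1, which removes glycans from misfolded proteins, and March6, another ligase, fell by 0.60 and 0.59. Of 43 genes of translocation and vesicle export, 5 rose and 3 fell. Sec61a2, a relative of Sec61a1, was at 2.46, 1.95, and 2.33 against 0.677 to 1.21 (log2 fold change 1.16), Arfgap3 and Tmed9 of early Golgi traffic rose by 1.14 and 0.58, and Sar1b, a GTPase that forms export vesicles, fell by 0.69.

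Of 49 genes of the integrated stress response, the wider program around ATF4, 16 rose (32.7%, beside 23.5% of all genes) and 9 fell (18.4%, beside 21.7%), with a median difference of -0.011. Slc7a11, the cystine transporter, was at 2.37, 1.74, and 1.24 FPKM after anti-CD40, while 5 of the 6 controls were listed at the floor of 0.01 and control 4 at 0.0107. Psat1 of serine synthesis was at 4.63, 5.70, and 5.08 against 0.134 to 0.677 (log2 fold change 3.60, SE 0.37, limma adjusted p = 3.11e-05). Shmt2, which passes serine carbon into the mitochondrial folate cycle, fell by 1.71 on the log2 scale, from 29.0 to 55.3 in controls to 12.1, 12.7, and 14.9. Cbs of cysteine synthesis fell by 1.25, and Vldlr, a lipoprotein receptor induced by ATF4, fell by 2.36.

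Among 24 other sensors and regulators, 7 rose (29.2%, beside 23.5% of all genes) and 4 fell (16.7%, beside 21.7%). Bax, a cell death effector that also binds IRE1, was at 121, 102, and 81.5 FPKM against 26.3 to 37.1 in controls (log2 fold change 1.60, SE 0.15, limma adjusted p = 1.66e-05). Creb3l1 and Creb3l4, relatives of CREBH in other secretory cells, rose by 1.43 and 1.26. Insig1, the sterol sensor that retains SREBP in the ER, was at 3.91, 4.71, and 4.38 against 20.3 to 26.4 (log2 fold change -2.37, SE 0.12, limma adjusted p = 4.45e-07), and Tmbim6, an inhibitor of IRE1, and Gtf2i, a factor that binds ERSE, fell by 0.68 and 1.16. Of 4 tested genes whose transcripts active IRE1 cleaves, 1 rose (25%, beside 23.5% of all genes) and 1 fell (25%, beside 21.7%), shares close to those of all genes. These were Pdgfrb (1.099), which was also among the stellate markers counted, and Bloc1s1 (-0.63).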

How the data were processed

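Reads from 9 livers were aligned by the authors to mm10 with STAR and summarized with Cufflinks and Cuffdiff. The deposited values are FPKM, 1 per mouse for 24341 gene names, and none lies below 0.01. The annotation, the handling of strand, and read totals are not given in the sources used here. FPKM divides by transcript length, although 3′ libraries yield about 1 read per transcript, so levels were not compared between genes. Steps in the FPKM of 1990 low genes gave whole reads in 83.8% of them (within 0.06 reads), with relative depths of 0.870 to 1.13.

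The 15 genes with a failed estimate were left out. Groups were taken from the sample labels, and the mice are taken as separate animals. Genes whose FPKM averaged 0.1 or more were tested as log2(FPKM + 0.1) with limma 3.58.1 in R 4.3.3 (trend, 2-sided, Benjamini-Hochberg at 0.05). Single genes were also tested with an exact permutation test over 84 splits, whose p-values are not adjusted for the number of genes. Scripts were tested on simulated data. Alternatives were pseudocounts of 1 and 0.01, no filter, a mean FPKM of at least 1, other normalizations and variance settings, failed estimates kept, and each mouse left out. Python 3.11.15, numpy 2.4.6, pandas 2.3.3, and matplotlib 3.10.9 did the remaining steps.

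The UPR genes, arms, and other lists were chosen with earlier results of these data known. All 36 UPR genes were named, and from each other list up to 3 increases and 3 decreases, the largest among genes past the threshold whose groups did not overlap. Endothelial (2 higher, 3 lower of 7), stellate (2 and 2 of 7), cholangiocyte (2 and 0 of 5), and acinar markers (2 and 0 of 16) were also counted. Gene positions overlapping a neighbor were read from GENCODE M21 and may share reads, namely Dnajb11, Pdia4, Pdia6, Syvn1, Derl2, Ddit3, and Ppp1r15a. Protein sequences were not used here.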

Additional observations from a re-analysis of the deposited data

Results flagged for a closer look

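Among the 69 results examined, 5 had 1 control mouse set apart from the other 5, with a gap to the nearest mouse above Dixon's 95% critical share of the range of the 6 controls. Chance gives this in about 1 in 20 groups, or 3.45 of 69. For Dnajb9 control 11 stood apart at 67.4 FPKM (gap 0.733 of the range). Control 12 stood apart for Derl2 at 79.9 FPKM (gap 0.695), for Chac1 at 10.8 FPKM (gap 0.698), and for Dnajc10 at 11.1 FPKM (gap 0.679). For Slc7a11 control 4 was at 0.0107 FPKM and the other controls at the floor of 0.01, so the gap was the whole range (1).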

How the results depend on the processing

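With 3 anti-CD40 and 6 control mice the smallest exact permutation p was 0.0238, and the total depth is unknown, so low genes such as Asns and Ern1 rest on few reads. The count of UPR genes called higher was 15 with quantile normalization (41.7%, beside 21.7% of all genes) and 16 with Saa1, Saa2, and Saa3 left out (44.4%, beside 40.7%). It was 5 with median of ratios scaling, which changed the values little (13.9%, beside 23.6%). It ran from 4 to 9 when 1 mouse was left out, with 9 only without control 12. The count called lower was 0 to 1 in the latter, with Trib3 called without control 4. Over all genes, 4814 to 6830 were called when 1 mouse was left out. The median difference of the ATF6 arm became 0.80 (quantile) and 0.75 (Saa genes left out) and ran from 0.22 (without control 8) to 0.57 (without control 12) when 1 mouse was left out. That of the IRE1-XBP1 arm became 0.30 (quantile) and 0.36 (Saa genes left out) and ran from -0.061 (without control 4) to 0.16 (without control 12). That of the PERK-ATF4 arm became 0.64 (Saa genes left out) and 0.084 (mean FPKM of at least 1, which drops Asns) and ran from 0.14 (without control 7) to 0.39 (without control 12), with 0.18 without control 4. Derl1 turned to 0.36 and passed with the Saa genes left out, and P4hb turned to 0.42 and passed with quantile normalization. The cause was not tested. Over 718 pairs of UPR gene and alternative, the sign of the difference changed in 34 (14 genes) and a call was gained in 26 (11 genes) beside the reversals. Hyou1 lost its call in 7 of 20 alternatives, 6 of them with 1 mouse left out and the other without the filter on low values (limma adjusted p = 0.1002). Pdia3, Eif2ak3, and Ddit3 kept theirs in all 20 and Asns in all 19 in which it was tested. No paired analysis was possible because the groups share no mouse numbers.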
